A study of Danio rerio with 4 samples.

Results

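Heart muscle contracts when calcium enters the cell, is released from internal stores through ryanodine receptors and binds troponin, which lets tropomyosin move and myosin pull on actin. Titin holds the filaments in register, the sodium-calcium exchanger removes calcium between beats, and potassium channels end each action potential. In zebrafish the heart beats well before 48 hours post fertilisation (hpf), and mutants in many of these genes have silent, weak or irregular hearts. The 9 genes described here were picked by name from these roles, with earlier results of these data known. They are the thick-filament genes myl7, vmhcl and mybpc3, the thin-filament genes tnnt2a and tpm4a, the titin gene ttna, the calcium genes ryr2b and slc8a1a, and the potassium channel gene kcnh6. All 9 were quantified, among 32512 genes listed and 13233 above 0 in at least 1 library, and all 9 passed the filter on low counts that left 10840 tested genes.

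The libraries came from whole Tübingen wild-type embryos at 48 hpf, so heart muscle is a small part of each. Embryos of the hace1 group had been injected with an antisense morpholino that blocks a splice site of hace1, a HECT-domain ubiquitin ligase gene, in the part encoding the catalytic domain. Control embryos had been injected with a standard control morpholino, and no uninjected embryos were analysed here. Per the labels, each group had 6 RNA samples of about 100 embryos, and 3 samples were pooled into each of its 2 libraries, A and B. Because the libraries are pools from a transient knock-down, and nothing in the labels says that they came from separate clutches, the spread between libraries may be technical. In whole embryos, fewer heart cells and less RNA per heart cell cannot be told apart.

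The oligonucleotides are shown because they alone define the groups. Both are given 5′ to 3′ as the labels state them, and each has 25 bases.
hace1-HECT: ccctcgaactgttagacagaataaa
standard control: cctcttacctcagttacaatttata

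Estimated counts summed to between 5192490 and 10413981 per library, lowest in control A. Over 6390 well-counted genes, libraries were compared by their median absolute log2 difference. The controls differed from each other by 0.245 and the hace1 libraries by 0.135, and control B differed from hace1 A and B by 0.247 and 0.249. Control A differed from them by 0.314 and 0.317. Control A thus stood apart, and results that rest on either control are given with and without it. The targeted gene hace1 was at 18.4 and 13.5 CPM in the controls and 13.7 and 13.6 in the hace1 libraries, where CPM is the count relative to library size after scaling between libraries and values come in the order A, B. Its log2 fold change was -0.18 ± 0.22 (SE, limma-voom adjusted p = 0.667), and a splice-blocking oligonucleotide need not change a gene's total count, so it is no check of the knock-down, which the labels say was verified by RT-PCR. Markers of skeletal muscle, skin, blood, lens and neurons were all detected. Of 9 annotated heart muscle markers, 5 were quantified and 4 (vmhc, myh6, tnnc1a and nppa) were listed at 0 in every library. Of all listed genes, 19279 were at 0 in every library, so a 0 can come from the counting and says nothing about expression.

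None of the 9 genes was called between hace1 and control morphants, although the 5 filament genes other than titin all had both hace1 libraries above both controls. The highest fold was that of the tropomyosin gene tpm4a, 1.57-fold, and the lowest among these 5 was that of the light-chain gene myl7, 1.31-fold. The titin, calcium and potassium channel genes had overlapping groups. A gene was called at a Benjamini-Hochberg adjusted p below 0.05 in limma-voom over all tested genes, and by this rule 2.59% of them were called (281 genes, with 1.38% higher and 1.21% lower). At an unadjusted p below 0.05, 3 of the 9 passed, all higher (tpm4a, vmhcl and mybpc3), against 22.5% of all tested genes that passed and 11.2% that passed and were higher. Both hace1 libraries lay above both controls in 5 of the 9 and below both in 0, against 27.8% and 25.9% of all tested genes, of which 53.7% had groups that did not overlap. The log2 fold change was positive in 6 of the 9, against 51.7% of all. The median log2 fold change was 0.39 over the 9 genes and 0.02 over all tested genes. Because the 9 were chosen with earlier results of these data known, these are not independent comparisons. The median of the 9 was 0.16 without control A, 0.58 without control B and 0.22 with total counts as the only scaling, where that of all genes was -0.14. With 1 library left out, the members called higher numbered 1 without control A and 5 without control B, where 6.47% and 12.7% of all genes were called higher. They numbered 0 without hace1 A or hace1 B, where the shares were 0.189% and 0.16%. Limma-trend on log2 CPM and limma on the authors' deposited log2 values also called 0 of the 9.

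**Figure D1:**
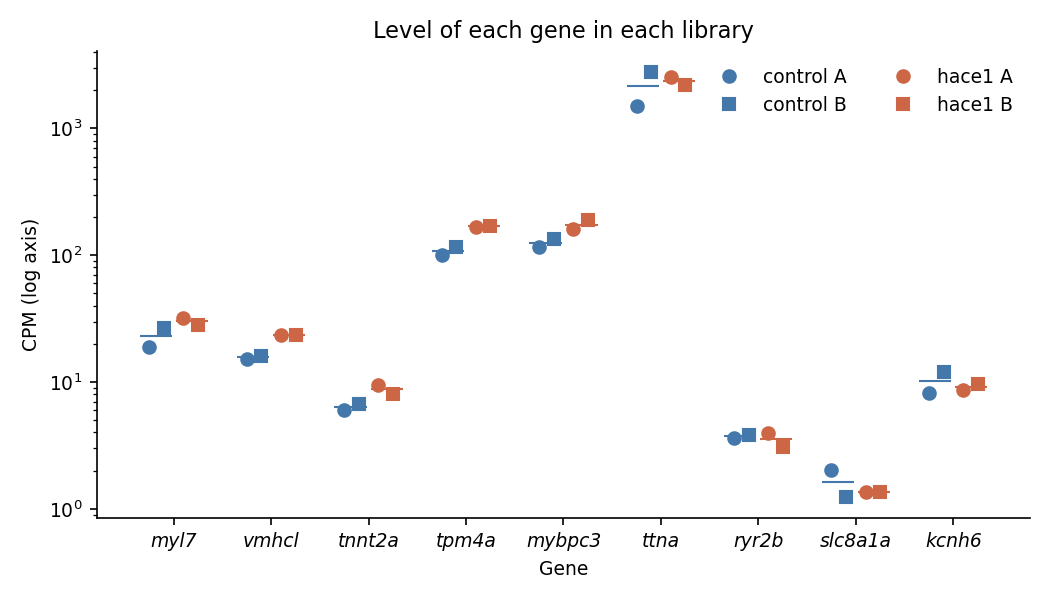
Level of the 9 genes in CPM (log axis) in each library. Blue marks control and orange hace1 libraries, circles A and squares B, and short lines the group means (n = 2). The hace1 points of myl7, vmhcl, tnnt2a, tpm4a and mybpc3 lie above both control points, and those of the other 4 genes overlap them.

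Levels of different genes were set side by side per length, as CPM per kilobase of annotated exons averaged over the 4 libraries. This measure does not allow for counts that are uneven along a gene. The last exon held 59.6% of the counts of tpm4a and 68.0% of those of myl7, and the 3′ end of ttna held 30.8%. The order below is thus that of the measure and need not be that of the RNA amounts. Tpm4a stood highest at 62.3, followed by mybpc3 at 31.2, myl7 at 25.2 and ttna at 22.6. The ranges over the 4 libraries of mybpc3, myl7 and ttna overlapped from each to the next. Within each library, however, mybpc3 was above both myl7 and ttna. The order of myl7 and ttna was reversed in control B, where they read 25.5 and 27.8. Tnnt2a followed at 6.41, vmhcl at 2.96 and kcnh6 at 1.95, and the ranges of vmhcl and kcnh6 overlapped. The calcium genes were lowest, slc8a1a at 0.409 and ryr2b at 0.243 CPM per kilobase. By this measure, the filament genes other than vmhcl lay above the calcium and channel genes in every library.

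Among the thick-filament genes, vmhcl had the tightest groups. It encodes a ventricular myosin heavy chain, the motor protein of the ventricle (ENSDARG00000079782, Zv9 chromosome 2, 23574503 to 23589822, forward strand). Controls A and B read 15.2 and 16.1 CPM, and hace1 A and B read 23.7 and 23.4. The groups did not overlap, and averaged 15.7 CPM in controls (SD 0.65, n = 2) and 23.5 CPM in hace1 libraries (SD 0.216, n = 2). The estimated counts behind them were only 88.7 and 138.4 in the controls and 219.8 and 229.5 in the hace1 libraries. An SD of 2 values is a poor measure of spread, so the gap cannot be judged against it. On the log2 scale the difference was 0.58 ± 0.19 (SE, 95% interval 0.17 to 0.99, limma-voom adjusted p = 0.106), which did not pass. With 1 library left out it lay between 0.54 (no control A) and 0.62 (no control B), and it was called in the latter fit only (limma-voom adjusted p = 0.036). Myosin heavy chain genes are similar in sequence and its paralogue vmhc was listed at 0, so reads of the pair may have been split unevenly in the counting.

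Myl7 encodes the regulatory myosin light chain of atrium and ventricle and is the usual marker of zebrafish heart muscle (ENSDARG00000019096, chromosome 8, 42650575 to 42658403, reverse strand). Its controls read 18.9 and 26.9 CPM and its hace1 libraries 31.9 and 28.3. The hace1 libraries lay above the controls, but hace1 B was close to control B. The fitted log2 fold change was 0.39 ± 0.20 (SE, 95% interval -0.05 to 0.83, limma-voom adjusted p = 0.280). Without control A it was 0.16 (limma-voom adjusted p = 0.637) and without control B 0.66 (0.0145), so the size of the difference rested on control A.

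Mybpc3 encodes cardiac myosin-binding protein C, which tethers myosin heads and tunes contraction (ENSDARG00000011615, chromosome 7, 33172830 to 33233718, forward strand). Its levels were 115.9 and 134.9 CPM in the controls against 160.7 and 188.0 in the hace1 libraries. The groups did not overlap, though the libraries within each differed on the log2 scale by 0.219 (controls) and 0.226 (hace1). Between groups the log2 fold change was 0.48 ± 0.17 (SE, 95% interval 0.10 to 0.86, limma-voom adjusted p = 0.140). It lay between 0.36 without hace1 B and 0.59 without hace1 A, and was called only without control B (0.58, limma-voom adjusted p = 0.00275).

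Of the thin-filament genes, tpm4a came nearest to the threshold of all 9. It encodes a tropomyosin that in the zebrafish heart lies along actin and gates myosin binding (ENSDARG00000023963, chromosome 22, 15724318 to 15748522, reverse strand). The libraries are of whole embryos, so the part of tpm4a RNA that came from the heart is not known. Controls A and B were at 100.1 and 115.8 CPM, and hace1 A and B at 168.0 and 169.8. The hace1 libraries were nearly equal and both stood well above the controls, with means of 107.9 ± 11.1 and 168.9 ± 1.32 CPM (SD, n = 2 libraries each). Its log2 fold change of 0.65 ± 0.17 (SE, 95% interval 0.29 to 1.01, limma-voom adjusted p = 0.0569) stood at position 406 by p among the 10840 tested genes. It was called without control A (0.54, limma-voom adjusted p = 0.00744) and without control B (0.75, 7.33e-05), and was not called without hace1 A (0.66, 0.458) or hace1 B (0.64, 0.4996), and it was also called with A and B as a replicate block (limma-voom adjusted p = 0.0167), where 4.08% of all genes were called higher. Fits that leave out a hace1 library take the spread from the control pair alone, which differed more, while fits that leave out a control rest on the tighter hace1 pair.

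Tnnt2a encodes cardiac troponin T, which anchors the troponin complex to tropomyosin and whose loss gives the non-beating silent heart mutant (ENSDARG00000020610, chromosome 23, 5703090 to 5735038, reverse strand). It was at 5.96 and 6.65 CPM in the controls and at 9.53 and 8.10 in the hace1 libraries, on estimated counts of 34.8, 57.1, 88.5 and 79.5. Both hace1 libraries were above both controls. Its log2 fold change was 0.46 ± 0.25 (SE, 95% interval -0.09 to 1.01, limma-voom adjusted p = 0.299), and it was positive with each library left out, from 0.35 to 0.58, but never called.

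Ttna encodes titin, the giant spring protein of heart and skeletal muscle sarcomeres, so most of its RNA in whole embryos need not come from the heart (ENSDARG00000028213, chromosome 9, 43967888 to 44147003, reverse strand). The controls read 1514 (A) and 2788 CPM (B), and the hace1 libraries 2561 and 2205. Both hace1 libraries lay between the controls. The fold change on the log2 scale was 0.22 ± 0.27 (SE, 95% interval -0.37 to 0.81, limma-voom adjusted p = 0.671), and its direction depended on which control was used, with -0.23 without control A and 0.65 without control B (limma-voom adjusted p = 0.414 and 0.00181). The second titin gene ttnb, which was named after its values were seen, showed the same order of libraries, with 1301, 2531, 2280 and 1899 CPM. Titin genes are near copies in parts, and reads may be split between them.

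The calcium genes gave the least precise values because they had the fewest counts. Ryr2b encodes a cardiac ryanodine receptor, the channel that releases calcium from the sarcoplasmic reticulum (ENSDARG00000003706, chromosome 17, 19844156 to 19948292, reverse strand). Its estimated counts of 21.1 and 33.0 in the controls and 37.1 and 30.3 in the hace1 libraries gave 3.61, 3.84, 3.99 and 3.08 CPM. Hace1 B was the lowest and hace1 A the highest of the 4, and the groups overlapped. A log2 fold change of -0.10 ± 0.31 (SE, 95% interval -0.79 to 0.58, limma-voom adjusted p = 0.877) resulted, and it turned positive without hace1 B (0.09).

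Slc8a1a encodes the sodium-calcium exchanger, whose loss gives the fibrillating tremblor heart (ENSDARG00000013422, chromosome 11, 31411397 to 31487268, reverse strand). It had 11.8, 10.7, 12.6 and 13.2 estimated counts, or 2.02 and 1.25 CPM in the controls and 1.36 and 1.35 in the hace1 libraries. Control A was the highest and the other 3 libraries were nearly equal. For a log2 difference of -0.20 ± 0.43 (SE), the 95% interval ran from -1.13 to 0.73 (limma-voom adjusted p = 0.822), the widest of the 9. Without control A the value was 0.10. At this depth the intervals of both calcium genes were too wide to show small differences. The related exchanger gene slc8a1b, named after its values were seen, had more counts. It read 14.1 and 16.1 CPM in the controls and 11.3 and 10.9 in the hace1 libraries. Its groups did not overlap, but it was not called (log2 fold change -0.45 ± 0.21 SE, limma-voom adjusted p = 0.227).

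Kcnh6 encodes an ether-a-go-go-related potassium channel that repolarises the zebrafish heart (ENSDARG00000001803, chromosome 3, 31865847 to 31921058, reverse strand). Controls A and B read 8.21 and 12.1 CPM and hace1 A and B 8.67 and 9.61, so the controls enclosed both hace1 libraries. Its log2 fold change was -0.16 ± 0.25 (SE, 95% interval -0.70 to 0.38, limma-voom adjusted p = 0.748). Its sign followed the control used, with -0.40 without control A and 0.15 without control B.

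**Figure D2:**
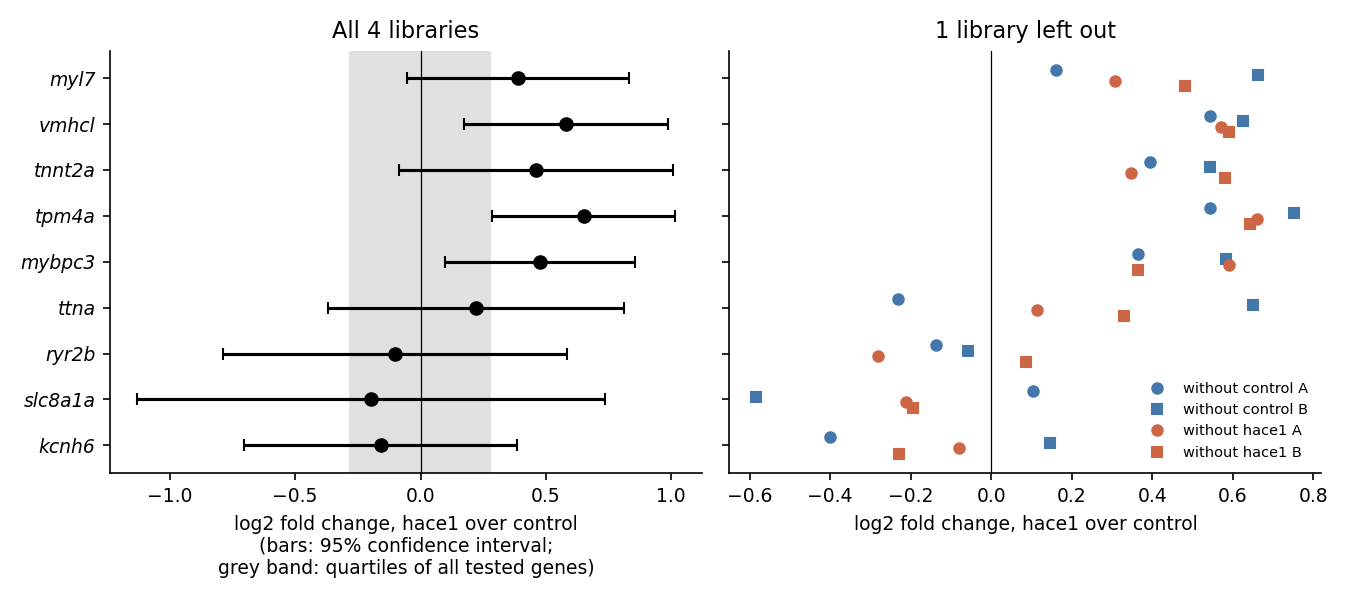
Left, log2 fold change of hace1 over control morphants for the 9 genes with 95% confidence intervals, and the quartiles of all tested genes as a grey band. Right, the same values with 1 library left out. The intervals of vmhcl, tpm4a and mybpc3 lie above 0, and ttna, ryr2b, slc8a1a and kcnh6 have values on both sides of 0 when a library is left out.

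Exon counts show where along each gene the reads lay. Overlapping exons of a gene were merged into regions numbered from the 5′ end, and regions with a total of at least 40 counts are described. In tpm4a, 8 of 9 such regions had both hace1 libraries above both controls, against 23.9% of all such regions in the tested genes. The last exon, region 11 (15724318 to 15725046), held 59.6% of the counts and read 48.7 and 72.1 CPM in the controls and 100.5 and 104.5 in the hace1 libraries. Region 4 (15732835 to 15732968), shared by all 4 listed transcripts, was the exception, with 9.33, 5.51, 9.05 and 8.65 CPM. Its log2 ratio of group means, 0.25, was the lowest of the 9 regions, and the highest was 0.76 in region 7. The log2 ratios of 5 regions from region 7 on lay between 0.60 and 0.76, while those of the 4 regions before it lay between 0.25 and 0.44.

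The deposited transcript shares of tpm4a differed most between control A and the other libraries. Tpm4a-001 took 25.9% and 44.0% of the gene in the controls and 47.8% and 52.7% in the hace1 libraries. Tpm4a-203, which starts at its own exon (region 3), took 48.1%, 39.0%, 33.9% and 31.7%. Control B lay nearer to the hace1 libraries than to control A for tpm4a-001. The first exon of tpm4a-203 held 11.9%, 10.8%, 9.31% and 8.56% of the exon counts, which are estimates too. Its values followed the same order of libraries as the transcript share.

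In vmhcl, 4 of 6 regions with at least 40 counts had both hace1 libraries above both controls, against 23.9% of all such regions. The log2 ratios were -0.06 in region 14 and 0.12 in region 25, then 0.54, 0.98, 0.81 and 1.41 in regions 32, 33, 36 and 37 at the 3′ end. Region 37 (23589702 to 23589822), the last, read 0.526, 0.944, 2.35 and 1.71 CPM, and the highest count was in region 33 (23587859 to 23588155) with 2.04, 2.101, 4.21 and 4.02 CPM. Both are small counts. Among the 6 regions with at least 40 counts, only those at the 3′ end separated the groups. The mean position of the exon counts of vmhcl was 65.2% and 61.4% of the exonic length from the 5′ end in the controls and 71.6% and 72.5% in the hace1 libraries. For tnnt2a it was 64.0% and 65.8% in controls and 71.9% and 71.2% in hace1 libraries. Across 6387 genes whose mean count reached 100, the difference of group means had a median of 1.38 percentage points and quartiles of -0.04 and 2.93, against 8.76 for vmhcl. Tnnt2a had 6.64, but its mean count of 65.0 was below that limit. Both hace1 libraries lay farther 3′ in 3 of the 9 members (vmhcl, tnnt2a and ryr2b), and in 33.7% of these genes. Of these 3 members only vmhcl reached a mean count of 100, and ryr2b had 30.4, so the shares are not on like genes. Slc8a1a, mybpc3 and kcnh6 had differences of -6.70, -1.03 and -0.85 percentage points, and tpm4a, ttna and myl7 had 2.86, 2.41 and 0.34. The part of this position shift in the differences between groups was not tested.

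Tnnt2a had only 2 regions with at least 40 counts. The last, region 15 (5703090 to 5703274), read 1.02 and 1.46 CPM in the controls and 3.29 and 2.88 in the hace1 libraries, while region 12 (5714391 to 5714500) read 1.57, 1.75, 2.54 and 1.32. Thus the last exon had non-overlapping groups and region 12 did not. In mybpc3, 8 of 16 regions with at least 40 counts had both hace1 libraries higher, against 23.9% of all such regions. The log2 ratios ran from -0.28 in region 17 to 1.01 in region 26. The last region of mybpc3, region 33 (33233296 to 33233718), held 26.0% of its counts, with 26.9, 40.2, 44.2 and 44.1 CPM. In myl7, the last exon (42650575 to 42651008) held 68.0% of the counts, with 11.4 CPM in control A and 19.7, 21.0 and 19.5 in the other libraries. There control B was within the range of the hace1 libraries, and only control A was low.

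Ttna had 151 of its 238 regions at 40 counts or more, of which 8 had both hace1 libraries higher and 6 both lower, against 23.9% and 20.5% of all such regions. Its last region (43967888 to 43969215) held 30.8% of the counts. With the exonic length cut into 10 equal bins, bin 2 from the 5′ end read 5.64 and 16.5 CPM in the controls and 9.46 and 7.41 in the hace1 libraries, and the last bin read 959.7, 1465, 1525 and 1405. In each of the 9 bins before the last, control B was the highest library, and control A was the lowest of the 4 in all 10. Against the mean of both controls, the log2 ratio of the hace1 mean ran from -0.40 in bin 2 to 0.27 in the last bin and was above 0 in bins 8, 9 and 10. Against control B alone, the log2 ratio of the hace1 mean was between -0.97 and -0.22 in those 9 bins and 0.00020 in the last.

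Kcnh6 had 2 regions with at least 40 counts. Its last exon, region 16 (31865847 to 31867043), read 1.47, 4.70, 3.05 and 2.63 CPM, and region 7 (31878833 to 31879258) read 0.856, 0.815, 0.951 and 2.43. Region 7 was high in hace1 B alone. Ryr2b and slc8a1a had no region at 40 counts, and 71 of 103 and 9 of 10 of their regions were above 0. The relative use of exons was tested for the other 7 genes in limma diffSplice over 9476 genes, where 0 genes passed (0% of those tested, and 2.88% at an unadjusted p below 0.05) and every one of the 7 had an adjusted p of 1. At an unadjusted p below 0.05, 273 genes passed and 0 of the 7 did, with vmhcl lowest at an unadjusted p of 0.0708 (limma diffSplice). Of 92089 single regions, 0.00217% passed in relative use, and none was in the 7 genes (limma diffSplice, smallest adjusted p = 0.999975).

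**Figure D3:**
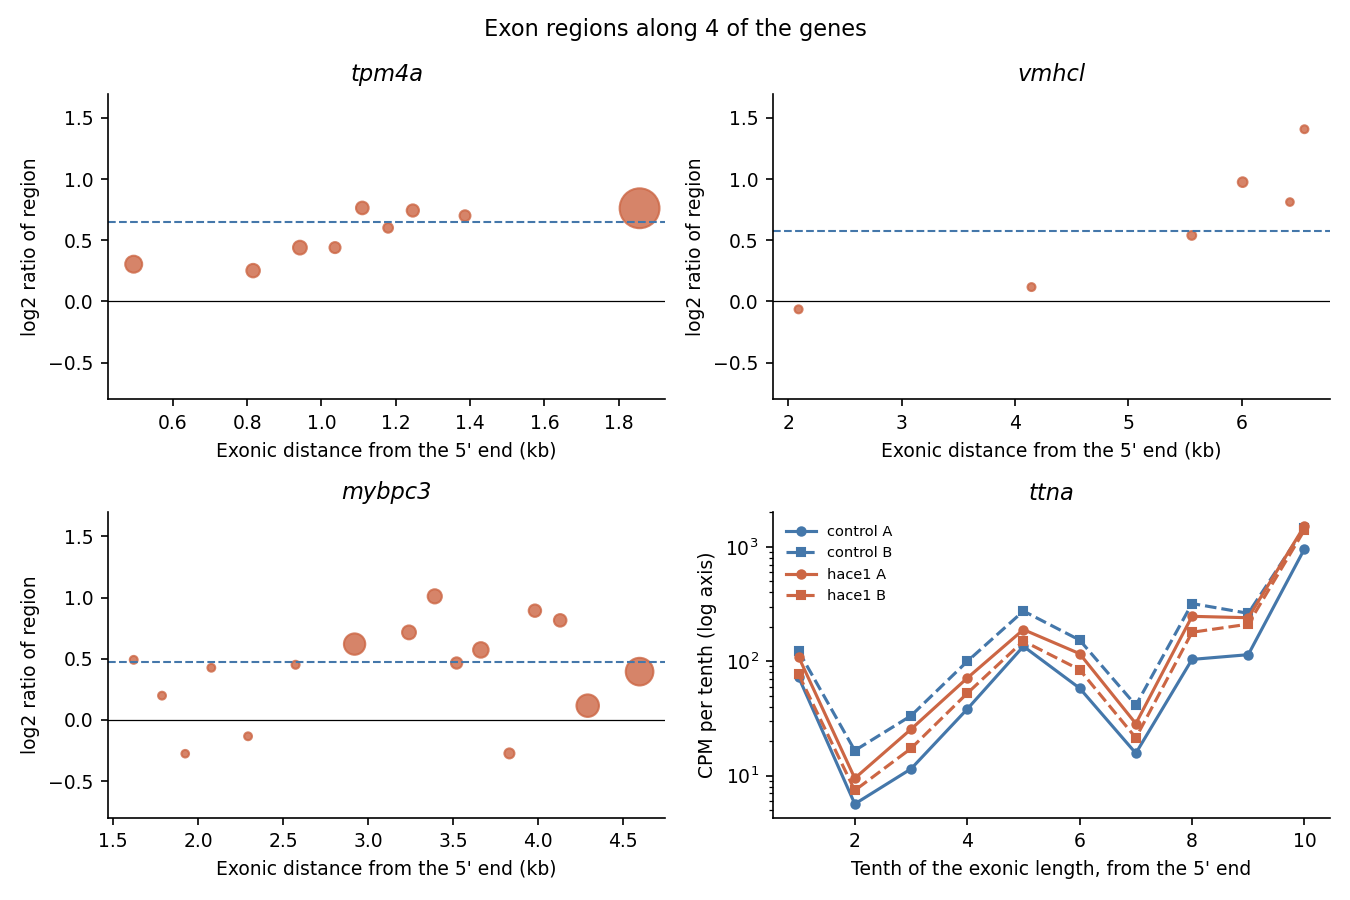
Log2 ratio of hace1 over control group means in exon regions with at least 40 counts of tpm4a, vmhcl and mybpc3 against exonic distance from the 5′ end, with point area growing with the count and the gene's log2 fold change as a dashed line, and CPM of ttna (log axis) in 10 bins of its exonic length for each library. The vmhcl ratios go from -0.06 in region 14 to 1.41 in region 37, and control A is the lowest ttna line in every bin.

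Called genes differed in length, with 42 higher and 11 lower among the shortest and 11 higher and 52 lower among the longest, so the members are set beside genes of like length, in 5 classes of 2168 tested genes. Among the shortest, with myl7 and tnnt2a, the median was 0.08 on the log2 scale, and in the middle class, with tpm4a, 0.06. It was 0.01 in the fourth class with slc8a1a, and -0.11 in the longest class with vmhcl, mybpc3, ttna, ryr2b and kcnh6. Vmhcl, mybpc3 and ttna thus lay above the upper quartile of their class (0.125), and ryr2b and kcnh6 lay near its median. In that class 18.5% of genes had both hace1 libraries above both controls. With each library's trend on length removed, the log2 fold changes were 0.71 for vmhcl (limma adjusted p = 0.0668), 0.60 for tpm4a (0.0689), 0.54 for mybpc3 (0.0839) and 0.56 for ttna (0.157). None of the 9 passed in that fit, and that of ryr2b changed sign to 0.15.

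**Figure D4:**
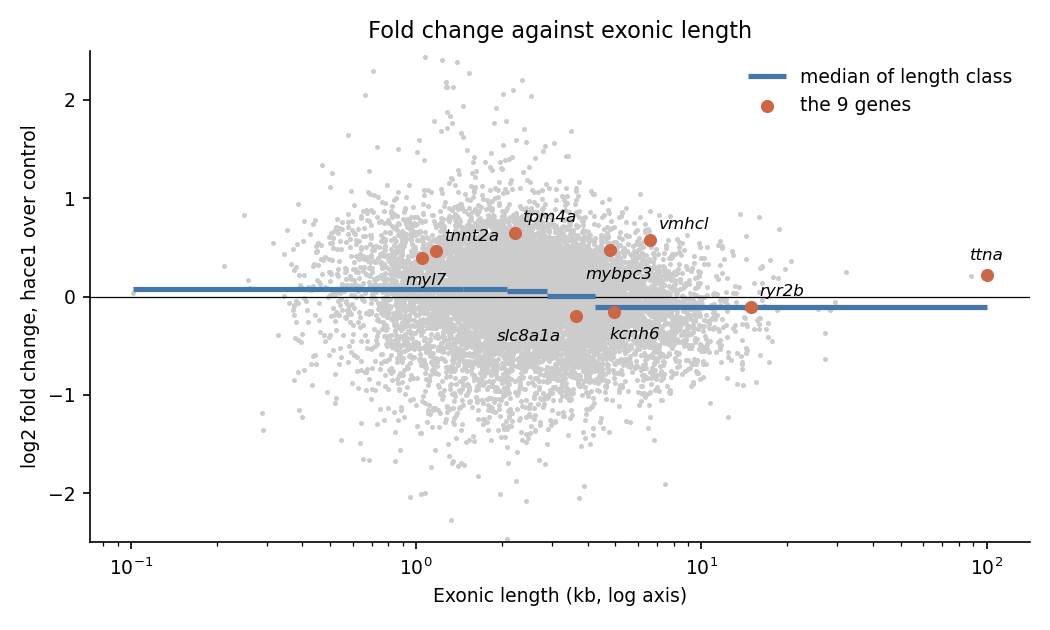
Log2 fold change of hace1 over control morphants against exonic length (kilobases, log axis) for all tested genes in grey, with 1 gene beyond the vertical range, the medians of the 5 length classes in blue and the 9 genes in orange. Vmhcl, mybpc3 and ttna lie above the median of the longest class, and ryr2b and kcnh6 lie next to it.

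Of 28 tested sarcomere genes, desma, the desmin gene of the intermediate filaments around myofibrils, rose, 0 fell and 27 were not called. Of all tested genes, 1.38% were called higher and 1.21% lower. The median log2 fold change of the sarcomere genes was 0.38, against 0.02 for all tested genes. Of the 28, 24 were positive, against 51.7% of all. Both hace1 libraries lay above both controls in 21 and below both in 3, against 27.8% and 25.9% of all. Among the 3 was tnnt2d, a relative of tnnt2a named after its values were seen. It was at -0.38 ± 0.17 SE and was not called (limma-voom adjusted p = 0.211). The list's median was 0.31 without control A, 0.53 without control B and 0.22 with total counts only, where that of all genes was -0.14. Desma went from 263.5 and 269.1 CPM in controls A and B to 465.1 and 462.7 in hace1 A and B (log2 fold change 0.80 ± 0.17 SE, limma-voom adjusted p = 0.0391). Desmin and several others of the list are shared with skeletal muscle. The list also contains the members tpm4a, vmhcl, mybpc3, ttna, myl7 and tnnt2a, so its values partly restate theirs. The list's 17 other annotated genes were listed at 0.

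Of 13 tested calcium-handling genes, 1 rose, 2 fell and 10 were not called. Of all tested genes, 1.38% were called higher and 1.21% lower. The calcium list had a median of -0.10 that was 0.09 without hace1 B. Cacna1c, the pore subunit of the L-type calcium channel that carries calcium into heart cells and is also used by neurons, fell from 15.1 and 13.8 CPM in the controls to 5.22 and 5.15 in the hace1 libraries (log2 fold change -1.46 ± 0.24 SE, limma-voom adjusted p = 0.0132). Its groups were far apart. Neuron markers had a median of -0.25 and 1 of 11 called, gad2, at -0.82 ± 0.16 SE (limma-voom adjusted p = 0.0317). Its call was lost without hace1 A and without hace1 B, though its log2 fold change was -0.86 and -0.77 there. Both hace1 libraries lay below both controls in 7 of the 11 and above both in 2. Of all tested genes, 25.9% lay below and 27.8% above. The log2 fold change was positive in 2 of the 11, against 51.7% of all. The part of neuron markers in the difference of cacna1c was not tested. Camk2d2, a calcium-calmodulin kinase gene, fell (-0.70 ± 0.17 SE, limma-voom adjusted p = 0.0493), and srl, whose product sarcalumenin binds calcium in the sarcoplasmic reticulum, rose (0.79 ± 0.18, 0.0469). The channel's auxiliary subunit genes cacnb2a and cacnb2b, named after their values were seen, were at -0.72 ± 0.23 and -1.21 ± 0.34 SE and were not called (limma-voom adjusted p = 0.0996 and 0.0707). Both had non-overlapping groups, lower in hace1. Camk2d1, a relative of camk2d2 also named after its values were seen, went the other way. It was at 0.40 ± 0.19 SE with non-overlapping groups and was not called (limma-voom adjusted p = 0.227). Over the calcium list, both hace1 libraries lay above both controls in 5 genes and below both in 5, against 27.8% and 25.9% of all tested genes.

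Of all tested genes, 1.38% were called higher and 1.21% lower. Among 7 tested genes of rhythm and conduction, 0 rose and hcn4l fell. It encodes a hyperpolarisation-activated channel of the type that drives pacemaker cells, and went from 5.42 and 6.42 CPM to 2.27 and 2.37 (-1.35 ± 0.31 SE, limma-voom adjusted p = 0.0459). Its relative hcn4, named after its values were seen, was at -1.02 ± 0.41 SE and was not called (limma-voom adjusted p = 0.171). Over the rhythm list, both hace1 libraries lay above both controls in 3 genes and below both in 2. Of all tested genes, 27.8% lay above and 25.9% below. Of 12 tested cardiac regulators, mef2ca rose and 0 fell. It encodes a transcription factor of heart and skeletal muscle differentiation, and went from 119.5 and 131.9 CPM to 221.9 and 225.2 (0.83 ± 0.17 SE, limma-voom adjusted p = 0.0345). Its relative mef2cb, named after its values were seen, was at -0.20 ± 0.19 SE with overlapping groups and was not called (limma-voom adjusted p = 0.572). Over the regulators, both hace1 libraries lay above both controls in 2 genes and below both in 5, against the same 27.8% and 25.9%. The medians were -0.16 for rhythm genes, though 0.15 without control B, and -0.17 for regulators. All 6 calls in the cardiac lists held without control A and without control B, and all 6 were lost without hace1 A and without hace1 B. Each of the 6 kept its direction in all these fits. The fits without a control called more of all tested genes than the fit with all libraries, and those without a hace1 library fewer. Held and lost calls therefore say little about these 6 genes. Camk2d2, hcn4l and srl lay close to the threshold, with an adjusted p of 0.053 in limma with the length trend removed. Camk2d2 also missed it with median-of-ratios scaling (limma-voom adjusted p = 0.0502), without the filter (0.0566), in limma-trend (0.0557) and on the authors' deposited log2 values (limma, 0.0579). Hcn4l missed it without the filter (limma-voom, 0.0506) and srl on the deposited log2 values (limma, 0.0527).

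Summed over the lists, skeletal muscle marker RNA was far above heart marker RNA. Both sums were higher in each hace1 library than in each control, as were those of blood and skin markers. The skeletal sum was 95890 and 123259 CPM in the controls and 147452 and 138298 in the hace1 libraries. That of the heart muscle markers was 160.7, 190.0, 232.6 and 254.0. The lists hold 54 and 9 annotated genes, of which 14 and 4 were listed at 0. The sums are not per length, so the size of the gap between them partly reflects the lists. The quantified heart muscle markers were the members mybpc3, myl7, vmhcl and tnnt2a, and tnni1b at 4.74, 5.55, 6.72 and 6.23 CPM. Their sum thus mostly restates the members and is no separate measure of heart muscle. Of 40 tested skeletal markers, 4 rose (atp2a1l, desma, mybpc2b and txlnba), 0 fell and 36 were not called, against 1.38% of all tested genes called higher. Both hace1 libraries lay above both controls in 19 and below in 7, against 27.8% and 25.9% of all. Their median of 0.29 was 0.09 without control A and 0.45 without control B. With total counts as the only scaling it was 0.12, where that of all genes was -0.14. The highest of the 4 was the calcium pump gene atp2a1l, at 378.0 and 564.8 CPM in the controls and 920.8 and 953.3 in the hace1 libraries (log2 fold change 1.03 ± 0.22 SE, limma-voom adjusted p = 0.0391). All 4 calls were lost without hace1 A and without hace1 B, fits that called few of all tested genes. The 4 genes kept their direction there. On the authors' deposited log2 values atp2a1l, mybpc2b and txlnba were also not called (limma adjusted p = 0.0976, 0.0579 and 0.0911). Among the most abundant, the calcium pump gene atp2a1 was at 0.72 ± 0.23 and the creatine kinase gene ckmb at 0.75 ± 0.22 (SE). The light-chain gene mylpfa was at 0.18 ± 0.24, the parvalbumin gene pvalb2 at 0.48 ± 0.33 and the myosin gene myhz1.1 at 0.08 ± 0.24 (SE). Skin markers summed to between 25934 and 29714 CPM in controls and between 32554 and 32884 in hace1 libraries, with 0 of 8 called and 8 positive. Blood markers summed to 8367 and 10120 CPM in the controls and 12292 and 10220 in the hace1 libraries, so hace1 B was close to control B. Of the blood markers, 9 of 9 were positive, with a median of 0.29, and 51.7% of all tested genes were positive. Both hace1 libraries lay above both controls in 6 of 9 blood and 5 of 8 skin markers, against 27.8% of all. The erythroid factor gene gata1a, named after its values were seen, rose (log2 fold change 1.41 ± 0.26 SE, limma-voom adjusted p = 0.0264). Its call was lost without hace1 A (log2 fold change 1.55) and without hace1 B (1.26), fits that called few of all tested genes. The part of these tissues in the differences of the heart genes was not tested.

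**Figure D5:**
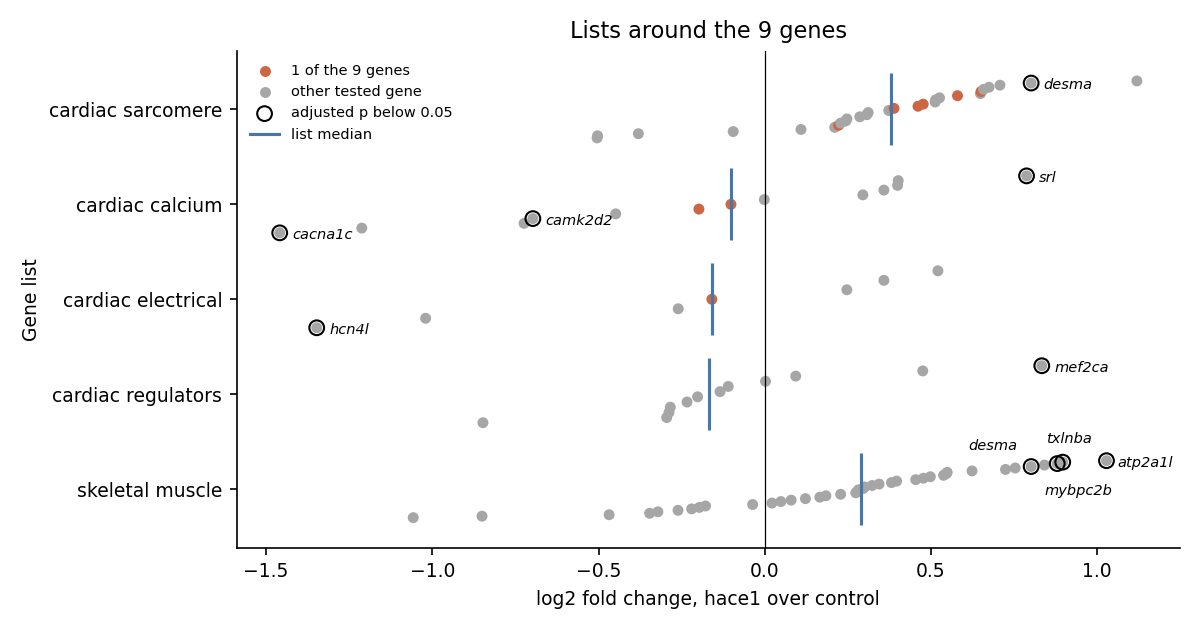
Log2 fold change of hace1 over control morphants for every tested gene of 4 cardiac lists and the skeletal muscle markers, 1 point per gene, with list medians in blue, the 9 genes in orange and called genes ringed and named. The sarcomere median of 0.38 and the skeletal median of 0.29 lie right of 0, and cacna1c and hcn4l lie farthest left among the called genes.

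The libraries of the 9 genes were also summarised as a profile, the median over the genes of log2 CPM centred on each gene's mean, which was -0.33 and -0.13 for the controls and 0.21 and 0.12 for the hace1 libraries. Among 6352 other genes with a symbol and at least 10 CPM, those nearest to it over the 4 libraries were ddit4, ell and hao2, with root mean square differences of 0.04 (0.0367, 0.0370 and 0.0379). With 4 libraries, such likeness is a description of these samples only.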

How the data were processed

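The libraries were sequenced on Ion Proton chips that each took 2 libraries. The sources used here do not say which shared one. The submitters' processing notes name the build Zv9 and the tools DESeq, Bowtie2 2.0.2, TopHat2 2.0.6 and cutadapt 1.2.1. Neither the counting program nor the strand setting or annotation release is stated there. Estimated counts were deposited by the authors per gene and exon inside an annotation file (94.2% of values of quantified genes were not whole, within 1e-06), with transcript shares and a table of log2 values. Those deposited log2 values equalled, within 0.001, size-factor scaled and median-centred log2 counts for 98.9% of 12216 genes.

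Scaling used trimmed means of M values (TMM) with 30% and 5% trimmed. Genes were kept if at least 2 libraries reached the equivalent of 10 counts in a library of median size and the total was 15 or more. They were tested in limma-voom (limma 3.58.1, R 4.3.3) with group as the only term, and exon use was tested with diffSplice on regions with a total of at least 10. This took the place of the planned count model because the counts are estimates. The tests were checked on simulated data. Total estimated counts per library set the precision. No annotated gene overlapped a member. Every member was named, as were the called genes of each cardiac and the skeletal list and the 5 most abundant skeletal markers. The members and lists were chosen with earlier results of these data known. The letters A and B were not taken to pair libraries (correlation of deviations 0.01 over 10840 genes, with only 2 pairs).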

Additional observations from a re-analysis of the deposited data

How the results depend on the processing

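With 2 libraries a group, the count of called genes depended most on which library was left out. It was 281 with all libraries and from 23 to 2556 with 1 left out, with members called from 0 to 5 and genes with changed exon use from 0 to 104, against 0 of each with all libraries. Left-out ranges of the log2 fold change were -0.23 to 0.65 for ttna, -0.28 to 0.086 for ryr2b, -0.58 to 0.10 for slc8a1a and -0.40 to 0.15 for kcnh6. Left-out ranges of the median were 0.16 to 0.58 for the members, 0.31 to 0.53 for sarcomere genes, -0.21 to 0.086 for calcium genes, -0.36 to 0.15 for rhythm genes, -0.22 to -0.042 for regulators and 0.094 to 0.45 for skeletal markers.

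Scaling by total counts alone called 628 genes, split 105 higher and 523 lower against 150 and 131, and moved the median of all genes from 0.02 to -0.14. The medians were then 0.22 for the members, 0.22 for sarcomere genes, -0.26 for calcium genes, -0.32 for rhythm genes and -0.33 for regulators. The authors' log2 values gave 487 calls (192 higher and 295 lower). Removing the length trend gave 172 (105 and 67) and put ryr2b at 0.15. Exon regions with a total of at least 5 counts gave 2 genes with changed exon use. The cause of these differences was not tested. With A and B as a replicate block, 908 genes were called (442 higher and 466 lower) and 1 member, tpm4a. The letters are shared by 2 pairs only, and whether they pair the libraries is not known. Depth limited ryr2b and slc8a1a most.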
